A study of Mus musculus with 12 samples.

Results

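The genes described here are 10 known genes of progenitor and broadly undifferentiated spermatogonia, namely *Neurog3*, *Nanos3*, *Sox3*, *Upp1*, *Lin28a*, *Utf1*, *Sall4*, *Zbtb16*, *Cdh1* and *Pou5f1*. They were chosen by name, from what is known of these cells and with earlier results of these data known, out of the 21859 genes in the table. All 10 were among the 16932 genes that passed the filter on low values. RNA was measured by Smart-seq2 in 12 libraries of sorted mouse GFRa1+/KIT- spermatogonia, 5 from control and 7 from cryptorchid testes. The donors were GFRa1-EGFP reporter mice of 8 to 10 weeks, in which EGFP marks cells that use the gene of the GDNF receptor GFRa1. In the cryptorchid group the left testis had been fixed to the abdominal wall, where it is warmer than in the scrotum, and was taken on day 10 after surgery. The control was the right testis, which stayed in the scrotum, and all donors carried the reporter (the genotype labels are WT and Cryptorchid). Both groups were digested for 9 min, the control at 32°C and the cryptorchid testes at 37°C, so the position of the testis and the temperature of digestion cannot be told apart. Each library represents the RNA of about 200 cells, amplified by PCR without molecular identifiers, so intervals on read numbers cover counting error only. The sources do not say which libraries came from the same mouse, and *P*-values measure the spread between these libraries.

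Undifferentiated spermatogonia range from GFRa1-rich cells with stem cell activity to progenitors, which still lack KIT and are primed to differentiate in response to retinoic acid. NEUROG3, SOX3, LIN28A and UPP1 are widely used to mark the progenitor end of this range, whereas ZBTB16, SALL4, CDH1 and UTF1 mark undifferentiated spermatogonia more broadly. Loss of NANOS3, SOX3, SALL4 or ZBTB16 impairs the germ line of mice.

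The sorted cells carried the RNA of the receptors that defined them. *Gfra1* averaged 7.88 ± 0.884 log2 RPM (reads scaled to the library's total; SD, n=5) in the control and 8.40 ± 0.704 (SD, n=7) in the cryptorchid group, and *Kit*, whose protein was absent from the sorted surface, was at 4.49 ± 0.627 and 4.94 ± 0.567. Reads on genes numbered 4511730 to 24345368 per control library and 3306771 to 20027902 per cryptorchid library. The values themselves separate a pair of technical sets, replicates 1 to 3 of both groups (set 1, 3 control and 3 cryptorchid libraries) and replicates 4 and above (set 2, 2 control and 4 cryptorchid libraries). Even read numbers made up 53.2% to 60.8% of the values from 1 to 20 reads in set 1 and 48.2% to 50.5% in set 2, so for the 10 genes and the called genes the differences within each set are given beside the pooled ones. Markers of spermatids, the haploid cells that the sort should exclude, were present in both groups at unequal level. The summed level of 7 spermatid markers ran from 490 to 2666 RPM in control libraries and from 14.5 to 1789 RPM in cryptorchid libraries, and its part in the results below was not tested.

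A 2-fold difference with an unadjusted *P* under 0.05 (limma over all genes tested) was met by 0 of the 10 genes, against 5.92% of all genes tested (3.56% higher and 2.36% lower). At an unadjusted *P* under 0.05 without the fold limit, which 9.48% of all genes tested met, 1 of the 10 was higher in cryptorchid spermatogonia (*Pou5f1*; 5.67% of all genes tested) and 1 was lower (*Nanos3*; 3.82%). In this fit, which does not pair libraries, no gene of the 10 had an adjusted *P* under 0.05 (0.0118% of all genes tested, 2 genes). Alternatives that changed this, among them a block by replicate number, are given at the end. In all 10 the groups overlapped. They stood apart in 0.555% of all genes tested with the cryptorchid group higher, and in 0.283% with it lower. The mean was lower in the cryptorchid group for 6 of the 10 genes and higher for 4, with a median difference of -0.28 log2 RPM, against 0.10 over all genes tested. *Neurog3*, *Sox3* and *Utf1* were each at least 2-fold lower in mean log2 RPM, a size that 6.63% of all genes tested reached, but with *P* above 0.05. The summed level of the 10 genes ranged from 690 to 1186 RPM (median 725) in control and from 682 to 1139 RPM (median 846) in cryptorchid libraries, so the groups spanned almost the same range. Genes of high level such as *Zbtb16* (control median 8.38 log2 RPM) weigh most in this sum. *Neurog3*, *Sox3* and *Utf1* (3.17, 2.15 and 2.13) add little, so the sum does not show their differences.

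**Figure D1:**
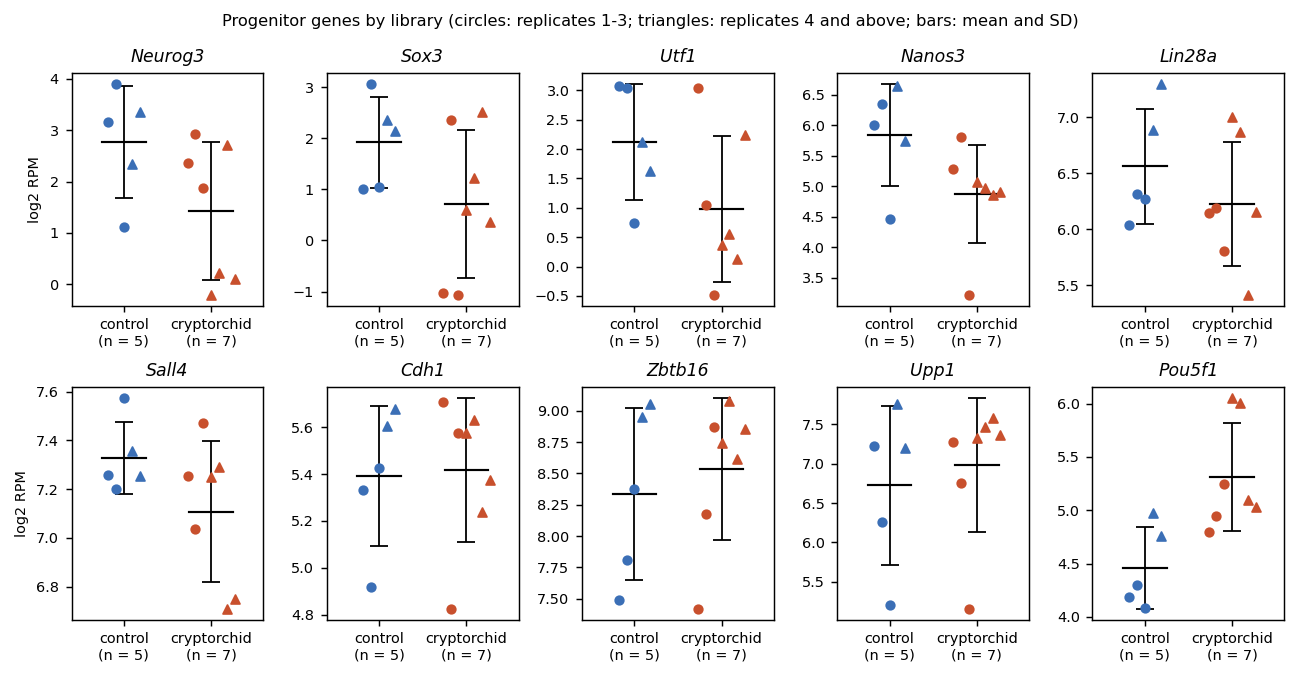
Level of each of the 10 genes in each library, as log2 RPM on the vertical axis, with control and cryptorchid libraries side by side, circles for replicates 1 to 3, triangles for replicates 4 and above, and bars at the mean ± SD (n=5 and n=7); each panel has its own scale. The cryptorchid points of *Pou5f1* sit mostly above the control points (5 of 7 above the highest control), and those of *Neurog3* reach down to -0.21 log2 RPM.

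Promoter sequences are shown for *Pou5f1* and *Nanos3*, the genes with *P* under 0.05 in each direction, and for *Neurog3*, the gene with the largest mean difference of the 10. They are the 250 bases before the transcription start in RefSeq (GRCm38.p6), read 5′ to 3′ on the gene's own strand. Capitals mark GGGCGG, the GC box bound by SP1-type factors, AGGTCA, a half-site of nuclear receptors such as the retinoic acid receptors, and CAGCTG, a form of the E-box bound by basic helix-loop-helix factors. Each motif was sought on both strands, and the letters of the 3 motifs do not overlap here. The RefSeq start used for *Nanos3* lies inside its GENCODE span, which also holds a transcript that starts further upstream. *Pou5f1* has a further RefSeq promoter inside the gene (chr17:35508557-35508806, + strand), not printed here, with a CAGCTG at -143, 6 CpG dinucleotides in 300 bases, and neither a GC box nor an AGGTCA.
Neurog3 chr10:62132840-62133089 (+): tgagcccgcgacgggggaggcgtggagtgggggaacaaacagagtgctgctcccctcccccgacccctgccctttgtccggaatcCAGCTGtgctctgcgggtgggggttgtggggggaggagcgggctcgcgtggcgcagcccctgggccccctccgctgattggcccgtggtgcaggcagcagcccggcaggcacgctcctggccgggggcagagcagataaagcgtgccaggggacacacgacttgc
Nanos3 chr8:84176553-84176802 (-): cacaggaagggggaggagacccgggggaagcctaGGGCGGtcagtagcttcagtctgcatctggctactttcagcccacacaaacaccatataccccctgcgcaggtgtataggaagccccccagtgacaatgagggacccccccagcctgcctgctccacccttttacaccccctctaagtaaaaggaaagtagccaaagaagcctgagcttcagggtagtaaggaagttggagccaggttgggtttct
Pou5f1 chr17:35505782-35506031 (+): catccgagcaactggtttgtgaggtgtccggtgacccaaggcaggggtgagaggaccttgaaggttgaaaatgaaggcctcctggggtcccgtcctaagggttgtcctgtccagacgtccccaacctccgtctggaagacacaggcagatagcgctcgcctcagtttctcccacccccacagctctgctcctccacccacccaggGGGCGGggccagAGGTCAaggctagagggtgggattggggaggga

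In these windows, *Neurog3* held a CAGCTG whose first base lay at position -165 from the start, *Nanos3* a GC box at -216, and *Pou5f1* a GC box at -45 followed by an AGGTCA at -33. Over 300 bases around the start, GGGCGG was found in 35.6% of 32817 RefSeq promoters, and AGGTCA and CAGCTG in 16.3% each. CpG dinucleotides numbered 19 in the *Neurog3*, 11 in the *Pou5f1* and 3 in the *Nanos3* window of 300 bases, against a median of 7 over all promoters. A match describes the letters only, and binding was not measured in these libraries. Of the 10 genes, 6 had a promoter in the RefSeq table used.

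*Neurog3* (chr10:62133090-62134763, + strand) encodes the basic helix-loop-helix factor by which early progenitors are commonly recognised. Its 5 control libraries stood at 3.17, 3.91, 1.11, 2.35 and 3.35 log2 RPM (replicates 1 to 5), and the 7 cryptorchid libraries ranged from -0.21 to 2.93 with a median of 1.88. All 7 cryptorchid libraries lay below the control median and 3 lay below the lowest control, but control replicate 3 lay among the cryptorchid values. The mean was 2.78 ± 1.09 (SD, n=5) in the control and 1.43 ± 1.35 (SD, n=7) in cryptorchid spermatogonia, a difference of -1.35 log2 RPM (SE 0.733, 95% confidence interval -2.89 to 0.20). This gave *P*=0.0833 in limma (adjusted *P*=0.588) and *P*=0.106 in the exact two-sided test of rank sums, or *P*=0.213 when libraries were exchanged within technical sets only. The difference was -0.33 within set 1 and -2.14 within set 2. Reads numbered 22 to 431 in the control and 4 to 115 in the cryptorchid group. At 4 reads the exact Poisson interval runs from 1.09 to 10.2 reads, so the lowest values are the least certain. The gene met the call at 2-fold and *P* under 0.05 without control replicate 3 (-1.76), without cryptorchid replicate 2 (-1.59) and with libraries weighted by their quality (-2.10). Of 1540 exon bases, 273 are shared with *Fam241b* on the other strand, whose difference was -0.44 log2 RPM (limma adjusted *P*=0.734). *Fam241b* stood above *Neurog3*, at 5.15 ± 0.789 log2 RPM (SD, n=5) in the control and 4.70 ± 0.454 (SD, n=7) in cryptorchid spermatogonia. Its part in the *Neurog3* values was not tested. Smart-seq2 does not keep the strand, so reads in the shared bases cannot be told apart.

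*Sox3* (chrX:60891366-60893430, - strand), an X-linked SOX factor of progenitors, stood at 1.01, 3.07, 1.04, 2.35 and 2.15 log2 RPM in the control libraries. In the cryptorchid libraries it ranged from -1.07 to 2.51 with a median of 0.60, and 4 of the 7 lay below the lowest control. The difference was -1.21 log2 RPM (SE 0.781, 95% confidence interval -2.86 to 0.43, *P*=0.138, adjusted *P*=0.656, exact *P*=0.268), at 20 to 241 control reads and 4 to 57 cryptorchid reads. Within the technical sets the difference was -1.62 and -1.07. The other 3 cryptorchid libraries, replicates 2, 5 and 6 (2.35, 1.23 and 2.51), lay within the control range.

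*Utf1* (chr7:139943789-139945112, + strand) encodes a chromatin-associated factor of undifferentiated spermatogonia and pluripotent cells. The control libraries stood at 3.07, 3.04, 0.74, 2.13 and 1.63 log2 RPM, and the cryptorchid libraries ranged from -0.49 to 3.04 with a median of 0.55. Again 4 of 7 cryptorchid libraries lay below the lowest control, at 5 or 6 reads each. Cryptorchid replicate 1 was level with the highest controls. Reads numbered 14 to 237 in the control and 5 to 184 in the cryptorchid group. At 5 reads the exact Poisson interval runs from 1.62 to 11.7 reads. The difference of -1.14 log2 RPM (SE 0.734, 95% confidence interval -2.68 to 0.41, *P*=0.139, adjusted *P*=0.657, exact *P*=0.149) was -1.08 within set 1 and -1.06 within set 2. For *Neurog3*, *Sox3* and *Utf1* alike, the interval of the difference includes 0 and also includes a fall of more than 4-fold, so neither an equal level nor a large loss is resolved with this spread between libraries.

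*Nanos3* (chr8:84173731-84185217, - strand) encodes an RNA-binding protein that acts on mRNA decay and translation in germ cells and is found in progenitors. Its control libraries stood at 6.003, 6.35, 4.47, 6.64 and 5.73 log2 RPM, and the cryptorchid libraries ranged from 3.21 to 5.81 with a median of 4.97. All 7 cryptorchid libraries lay below the control median, and 1 lay below the lowest control, which was again replicate 3. The mean was 5.84 ± 0.839 (SD, n=5) in the control and 4.87 ± 0.801 (SD, n=7) in cryptorchid spermatogonia, 1.95-fold lower (difference -0.97 log2 RPM, SE 0.423, 95% confidence interval -1.85 to -0.08). This gave *P*=0.0349 in limma (adjusted *P*=0.483), and the exact rank sum test gave *P*=0.106 over all splits and *P*=0.0533 within technical sets. The difference was -0.84 in set 1 and -1.24 in set 2. The limma *P* was no longer under 0.05 when control replicate 1, 2 or 4 or cryptorchid replicate 3 was left out (differences of -0.92, -0.84, -0.77 and -0.69). The 2-fold limit, in turn, was passed with median centring (-1.03), quantile normalization (-1.01) or a term for the technical set (-1.02). With 78 reads in the poorest library, counting error is small beside the spread between libraries.

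*Lin28a* (chr4:134003330-134018841, - strand) encodes an RNA-binding protein that blocks the maturation of let-7 microRNAs. The control libraries stood at 6.04, 6.32, 6.27, 6.88 and 7.30 log2 RPM and the cryptorchid libraries at 5.41 to 6.998 (median 6.16), so the groups overlapped over most of their range. The difference was -0.34 log2 RPM (SE 0.309, 95% confidence interval -0.99 to 0.31, *P*=0.292, exact *P*=0.268), -0.16 within set 1 and -0.73 within set 2. Its exons share 234 bases with *Gm13061* on the other strand, which is not in the table. Among 16 fixed partners of the 10 genes, 1 was called, against 5.92% of all genes tested. It was *Tut7*, a terminal uridylyltransferase that acts with LIN28 proteins on let-7 precursors. *Tut7* was higher by 1.11 log2 RPM (SE 0.274, limma adjusted *P*=0.199) with no overlap between groups, as in 0.555% of all genes tested. The paralog *Lin28b* differed by 0.35 log2 RPM (adjusted *P*=0.730).

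*Pou5f1* (chr17:35506018-35510772, + strand) encodes OCT4, the POU factor of pluripotent cells, which undifferentiated spermatogonia retain at low level. Its control libraries stood at 4.19, 4.30, 4.08, 4.98 and 4.76 log2 RPM, and the cryptorchid libraries ranged from 4.80 to 6.06 with a median of 5.10. All 7 cryptorchid libraries lay above the control median, and 5 of 7 lay above the highest control. The mean was 4.46 ± 0.387 (SD, n=5) in the control and 5.31 ± 0.509 (SD, n=7) in cryptorchid spermatogonia, 1.81-fold higher (difference 0.85 log2 RPM, SE 0.313, 95% confidence interval 0.19 to 1.51). With limma *P*=0.0141 (adjusted *P*=0.399), the exact two-sided rank sum test gave *P*=0.0101 over all splits and *P*=0.00667 within technical sets, the smallest value those splits allow. The difference was 0.81 within set 1 and 0.68 within set 2, and the limma *P*-value stayed between 0.00978 and 0.0379 when any library was left out. These *P*-values are for 1 gene of 10 and are not adjusted for that number. The exons share 317 bases with the antisense gene *Gm19553*, which is not in the table, and reads there cannot be told apart. Its relative *Pou2f1* was higher by 0.44 log2 RPM (adjusted *P*=0.597).

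*Sall4* (chr2:168748332-168767943, - strand), a zinc-finger factor that recruits the NuRD complex, varied least in the control, with libraries at 7.26, 7.20, 7.58, 7.36 and 7.25 log2 RPM. The cryptorchid libraries ranged from 6.71 to 7.47 (median 7.25), and the difference was -0.22 log2 RPM (SE 0.223, 95% confidence interval -0.69 to 0.25, *P*=0.335, exact *P*=0.202), -0.092 within set 1 and -0.31 within set 2. Cryptorchid replicates 6 and 7 (6.71 and 6.75) were the lowest of the 12 libraries. *Chd4*, the NuRD ATPase and a fixed partner, differed by 0.01 log2 RPM. The exons of *Sall4* share 290 bases with *Gm14261* on the other strand, which is not in the table.

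*Zbtb16* (chr9:48654297-48836222, - strand) encodes PLZF, a transcriptional repressor needed to maintain undifferentiated spermatogonia. The control libraries stood at 7.49, 7.81, 8.38, 8.95 and 9.05 log2 RPM and the cryptorchid libraries at 7.42 to 9.07 (median 8.74). Values were low in replicates 1 and 2 of both groups and higher in the other libraries, and the difference was 0.20 log2 RPM (SE 0.346, 95% confidence interval -0.53 to 0.93, *P*=0.568, exact *P*=0.876). It was 0.26 within set 1 and -0.18 within set 2.

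*Cdh1* (chr8:106603351-106670246, + strand) encodes E-cadherin, the adhesion molecule of undifferentiated spermatogonia. The control libraries stood at 5.33, 4.92, 5.43, 5.61 and 5.68 log2 RPM, the cryptorchid libraries at 4.82 to 5.71 (median 5.58), and the difference was 0.03 log2 RPM (SE 0.256, 95% confidence interval -0.51 to 0.57, *P*=0.919, exact *P*=1.0). It was 0.14 within set 1 and -0.19 within set 2, and with median centring the sign turned (-0.041). A change beyond about 1.5-fold in either direction lies outside this interval, which makes it the most tightly bounded after *Sall4*. Its relative *Cdh3*, encoding P-cadherin, was lower by -1.17 log2 RPM (limma adjusted *P*=0.430). It was the 1 called gene of the 11 relatives tested, against 5.92% of all genes tested.

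*Upp1* (chr11:9118103-9136170, + strand) encodes uridine phosphorylase 1, an enzyme of pyrimidine salvage. The control libraries stood at 7.22, 6.25, 5.199, 7.75 and 7.20 log2 RPM and the cryptorchid libraries at 5.15 to 7.58 (median 7.32), with replicate 3 the lowest of both groups. The difference was 0.26 log2 RPM (SE 0.448, 95% confidence interval -0.68 to 1.202, *P*=0.569, exact *P*=0.530), 0.17 within set 1 and -0.05 within set 2.

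**Figure D2:**
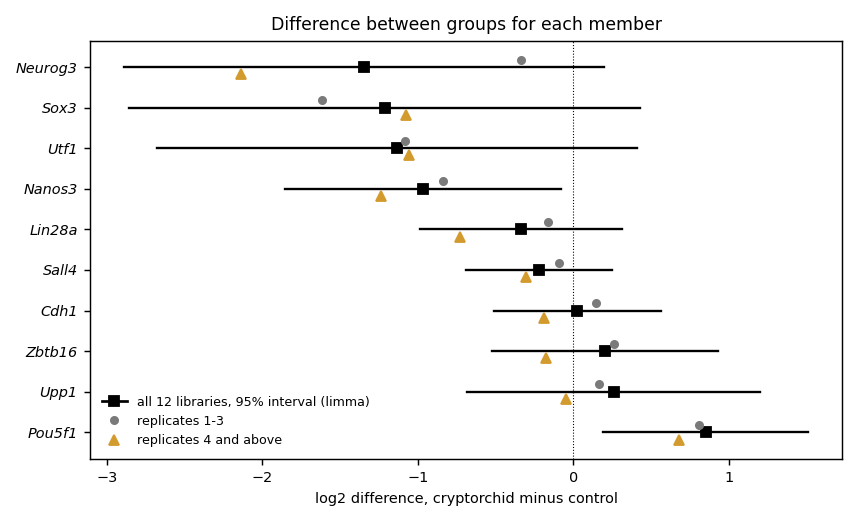
Difference of mean log2 RPM (cryptorchid minus control, horizontal axis) for each of the 10 genes, with its 95% confidence interval from limma and the differences within technical sets 1 and 2. The interval of *Pou5f1* (0.19 to 1.51) lies above 0, that of *Nanos3* (-1.85 to -0.08) below 0, and the other 8 include 0.

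Levels can be compared between the genes per length of exon. In control spermatogonia the median was highest for *Upp1* (97.0 RPM per kb), *Nanos3* (87.9), *Zbtb16* (62.9) and *Sall4* (29.3), and lowest for *Neurog3* (5.84), *Utf1* (3.56) and *Sox3* (2.15). *Lin28a* (19.97), *Cdh1* (9.71) and *Pou5f1* (8.74) lay between them. The level of *Neurog3* may include reads of *Fam241b* from the shared bases. With the length of the longest transcript in place of all exons, *Pou5f1* moved to 14.4 RPM per kb and stood above *Cdh1* in 5 of 5 control libraries (by 0.77 ± 0.317 on the log2 scale) and 7 of 7 cryptorchid libraries, so its place in the control depends on the length used. In the control order by all exons, 3 neighbouring pairs differed beyond their spread between libraries, *Zbtb16* over *Sall4* (mean log2 difference 0.99 ± 0.666, 5 of 5 libraries), *Lin28a* over *Cdh1* (1.32 ± 0.384, 5 of 5) and *Pou5f1* over *Neurog3* (1.14 ± 1.09, 4 of 5). In cryptorchid spermatogonia *Upp1* (106 RPM per kb) was again highest, followed by *Zbtb16* (81.0) and *Nanos3* (42.9), and *Pou5f1* (15.2) stood above *Cdh1* (10.8) in 7 of 7 libraries by 0.87 ± 0.481 on the log2 scale. *Cdh1* exceeded *Neurog3* (2.40 RPM per kb) in 7 of 7 libraries by 2.46 ± 1.52, and *Utf1* (1.19) and *Sox3* (0.732) were again lowest. All other neighbours differed by less than their SD, so the order of *Upp1* and *Nanos3* in the control, or of *Neurog3*, *Utf1* and *Sox3* in the cryptorchid group, is not resolved.

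**Figure D3:**
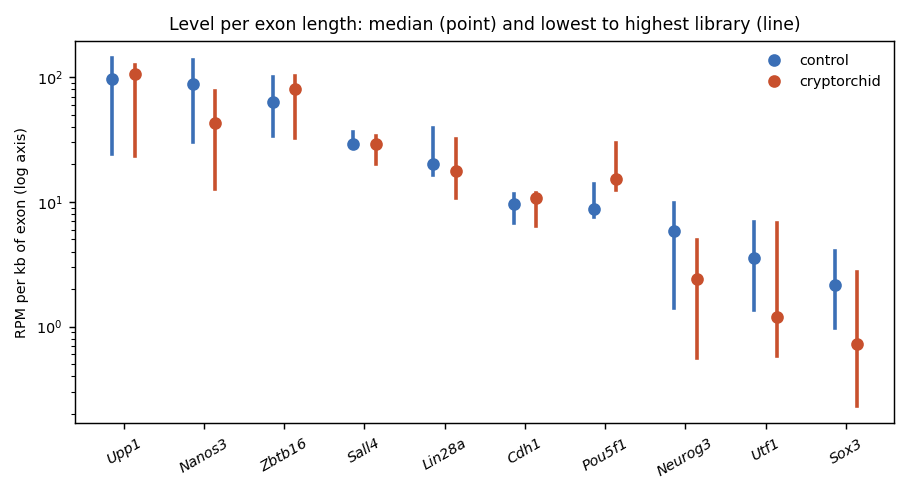
Level of each of the 10 genes in RPM per kb of exon (log axis) in control and cryptorchid libraries, with the point at the median and the line from the lowest to the highest library. *Upp1*, *Nanos3* and *Zbtb16* lead in both groups, and *Sox3* is lowest in both (medians 2.15 and 0.732 RPM per kb).

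Across libraries the 10 genes did not vary as a block. Over the 45 pairs, the median Pearson r of log2 RPM was 0.10 over 12 libraries, 0.17 with group means removed and -0.04 with group and technical set means removed. *Nanos3* was most alike to *Utf1* (0.72, and 0.62 with group means removed) and *Sox3* (0.67 and 0.56), and it ran with *Upp1* (0.56 and 0.77). *Lin28a* and *Pou5f1* had r 0.30 over all libraries and 0.78 with group means removed, and *Zbtb16* and *Pou5f1* 0.59 and 0.68. The most opposed pairs over all libraries were *Neurog3* with *Pou5f1* (-0.64, and -0.47 with group means removed) and *Utf1* with *Zbtb16* (-0.64 in both cases). With group means removed *Sox3* was also opposed to *Cdh1* (-0.62) and *Sall4* (-0.60). Removing the technical set means as well left *Lin28a* with *Pou5f1* at 0.68 but lowered *Zbtb16* with *Pou5f1* to 0.31. The most opposed pairs were then *Upp1* with *Zbtb16* and *Sox3* with *Cdh1* (-0.91 each). The points share library, depth and technical set, and these values describe 12 libraries only. Against *Gfra1*, a relation looked at after the values were seen, r was -0.83 for *Nanos3*, -0.78 for *Utf1*, -0.59 for *Neurog3*, -0.43 for *Sox3* and -0.43 for *Upp1*, but 0.68 for *Zbtb16*, 0.50 for *Cdh1*, 0.42 for *Pou5f1*, 0.26 for *Sall4* and -0.02 for *Lin28a*. With group means removed the first 3 remained at -0.81, -0.75 and -0.52. Once set means were removed as well, *Upp1* moved to -0.90, *Sall4* to 0.63 and *Pou5f1* to 0.18. Replicate 3 of each group held the highest *Gfra1* of its group (9.10 and 9.59 log2 RPM) and the lowest *Nanos3* and *Upp1*. The same libraries had the lowest share of reads on genes in their groups (74.5% and 80.9%). They also had the most genes without reads (5478 and 5799). The part of library quality in these correlations was not tested. In bulk libraries, fewer cells of a type and less RNA per cell cannot be told apart.

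**Figure D4:**
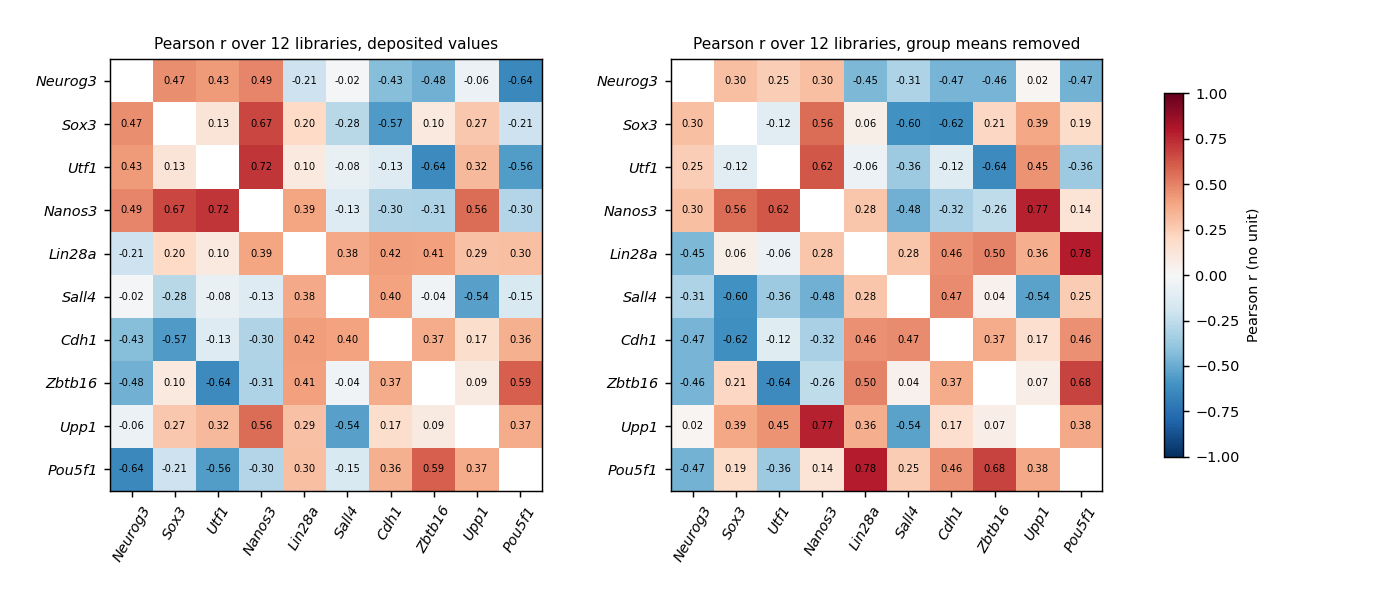
Pearson r of log2 RPM between each pair of the 10 genes over 12 libraries, for the deposited values (left) and with group means removed (right), from blue (-1) to red (1). *Lin28a* with *Pou5f1* (0.78) and *Nanos3* with *Upp1* (0.77) are the highest pairs on the right, and *Utf1* with *Zbtb16* (-0.64) the lowest.

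Among 11274 genes with at least 10 reads in every library, the genes most like each member over the 12 libraries were as follows. *Neurog3* ran with *Pip5k1c* (r 0.90) and *Snapc2* (0.87), *Sox3* with *Cd72* and *Fam173a* (0.91 each), and *Utf1* with *Mthfd2* (0.93) and *Reep4* (0.91). *Nanos3* ran with *Reep5* and *Eif6* (0.96 each), and *Upp1* with *Zbtb43* and *Snw1* (0.96 each). *Lin28a* ran with *Dpf1* and *Abhd17a* (0.86 each), *Sall4* with *Ttyh2* (0.91) and *Zfyve27* (0.88), and *Zbtb16* with *Raly* and *Mllt10* (0.95 each). *Cdh1* ran with *Exoc6* (0.95) and *Zfp617* (0.93), and *Pou5f1* with *Rbm47* and *Gm14325* (0.91 each). The best of 11274 genes over 12 libraries is high by the choice alone, and none of the 10 genes was among them. *Neurog3*, *Sox3* and *Utf1* could not be, since each had libraries with fewer than 10 reads.

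The rest of the programme was taken from fixed lists. At 2-fold and *P* under 0.05, 3.56% of all genes tested were called higher and 2.36% lower, with a median difference of 0.10 log2 RPM. Of 14 stem-state genes, 2 were called higher and 0 lower (median difference 0.39), namely *Tspan8*, a surface tetraspanin (1.25, adjusted *P*=0.301), and *T*, the T-box factor brachyury (1.19, adjusted *P*=0.483). *Gfra1* differed by 0.52 (adjusted *P*=0.718) and *Ret*, its signalling partner, by 0.23 (adjusted *P*=0.803). The stem-state list was not uniformly higher, since the mean was higher for 9 of the 14 genes and lower for 5. Its largest difference was that of *Egr4*, named here after its values were seen, at -1.59 log2 RPM, which did not meet the call. For *Egr4*, 5 of 7 cryptorchid libraries lay below the lowest control and 2 lay above the control median. Of 14 other genes of undifferentiated spermatogonia, 0 were called higher and 1 lower (median 0.26), *Rarg*, the retinoic acid receptor that makes progenitors competent to differentiate (-1.06, adjusted *P*=0.449), while the germ cell RNA regulators *Dazl* and *Ddx4* differed by -0.04 and 0.52 with *P* above 0.05. *Rarg* stood at 5.26, 4.87, 3.57, 4.53 and 4.03 log2 RPM in control libraries and at 2.18 to 4.19 (median 3.24) in cryptorchid libraries, so the groups overlapped. *Itga6*, encoding an integrin subunit on undifferentiated spermatogonia and named here after its values were seen, was higher by 0.62 (adjusted *P*=0.366), under the 2-fold limit. All 7 cryptorchid libraries (6.49 to 7.15) lay above all 5 controls (6.002 to 6.27), as in 0.555% of all genes tested. Of 8 differentiating genes, 1 was called in each direction (median -0.29). *Stra8*, a retinoic acid response gene, was higher by 1.09 log2 RPM (adjusted *P*=0.273), and *Dnmt3b*, a de novo DNA methyltransferase that rises at differentiation, was lower by -1.20 (adjusted *P*=0.215). *Stra8* ranged from 5.48 to 6.47 log2 RPM in control and from 6.11 to 7.70 in cryptorchid libraries, and *Dnmt3b* from 6.22 to 7.74 and from 5.19 to 6.75. *Kit* differed by 0.45 (adjusted *P*=0.725) and *Sohlh1*, a helix-loop-helix factor of early differentiation, by -0.65 (adjusted *P*=0.603). The partner *Cnot1*, a scaffold of the deadenylase that NANOS proteins recruit, differed by 0.04. Within sets 1 and 2 the called genes kept their direction, with *Tspan8* at 1.13 and 1.01, *T* at 1.297 and 0.77, *Rarg* at -1.36 and -0.75, *Stra8* at 0.75 and 1.14, *Dnmt3b* at -0.77 and -1.64, *Tut7* at 0.92 and 1.21 and *Cdh3* at -0.56 and -1.40.

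Of the lists for other cells, the 7 spermatid markers were all lower in mean (median difference -2.37 log2 RPM), with 3 called against 2.36% of all genes tested, the protamines *Prm1* (-2.40, adjusted *P*=0.359) and *Prm2* (-3.73, adjusted *P*=0.134) and the tail gene *Odf1* (-2.70, adjusted *P*=0.359). The 8 spermatocyte markers had 0 called (median 0.30, *Ldhc* -0.66 and *Tex101* 0.34). Markers of Sertoli cells had 0 of 8 called (median 0.37, *Clu* -0.01 and *Wt1* -0.13), with a summed level of 44.6 to 227 RPM in control and 39.5 to 237 RPM in cryptorchid libraries. Leydig cell, macrophage and lymphocyte markers had 0 of 3, 0 of 4 and 0 of 3 called, with sums of at most 15.5, 22.1 and 5.49 RPM in control and 47.8, 27.1 and 22.04 RPM in cryptorchid libraries. Their leading genes were *Star* (0.55) and *Cyp11a1* (-0.02), *Csf1r* (0.35) and *Cd68* (-0.37), and *Cd79a* (0.69) and *Ptprc* (0.84), all with *P* above 0.05. Among 4 peritubular myoid markers *Des* was higher by 2.55 (adjusted *P*=0.386, 0 to 3 against 0 to 38 reads), beside *Tagln* (1.07) and *Myh11* (-1.14, with -3.68 in set 1 and 1.82 in set 2). The highest control value of *Des* was -1.17 log2 RPM, so it passed the filter only through cryptorchid libraries. Control libraries without reads carry a value set by depth (-5.00 to -2.33 log2 RPM), so this difference also depends on depth. Among 4 endothelial markers *Cdh5* was higher by 2.01 (adjusted *P*=0.359), beside *Pecam1* (0.39) and *Tek* (0.05). Within sets 1 and 2 the differences were -2.82 and -2.65 for *Prm1*, -4.55 and -3.52 for *Prm2*, -3.16 and -2.84 for *Odf1*, 3.69 and 1.10 for *Des*, and 2.44 and 1.482 for *Cdh5*. The part of these markers in the differences of the 10 genes was not tested.

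**Figure D5:**
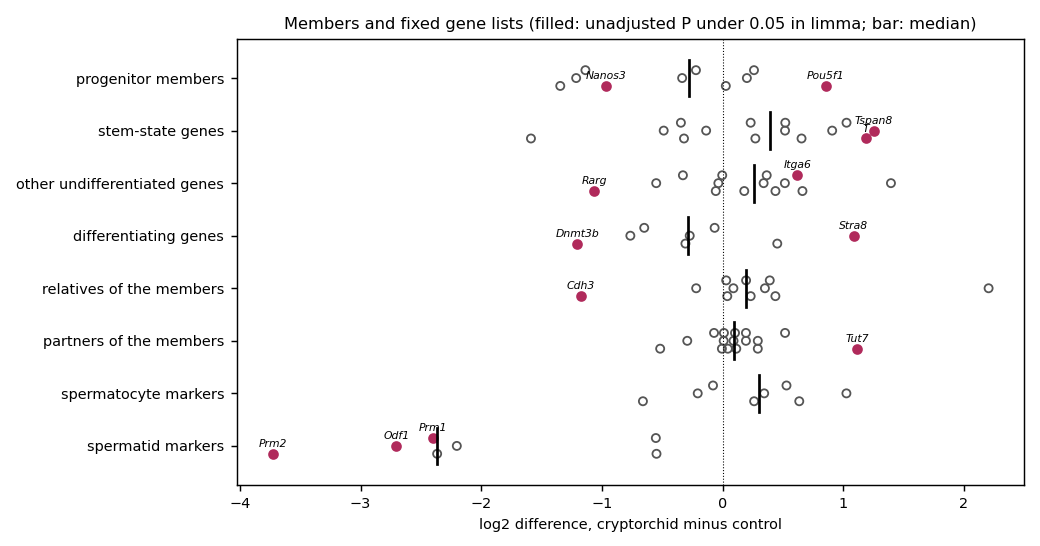
Difference of mean log2 RPM (cryptorchid minus control, horizontal axis) of every tested gene in the 10 genes and the fixed lists of germ cell states, relatives and partners, with a point for each gene, filled and named where the unadjusted limma *P* was under 0.05, and a bar at the list median. The spermatid markers lie furthest below 0 (median -2.37), and the median of the 10 genes is -0.28.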

How the data were processed

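RNA-seq values of 5 control and 7 cryptorchid GFRa1+/KIT- libraries were analysed. The authors checked and trimmed reads (FastQC 0.11.8, Trim Galore 0.6.6), mapped them to mm10 with HISAT2 2.1.0, used SeqMonk 1.48.1 to count those on protein-coding genes and deposited log2 RPM values per library, with replicates kept apart. The strand used in counting is not given in the sources used here. Genes without reads carry the value of 0.9 reads. The steps between low values gave whole reads (100% of values up to 1000 reads, tolerance 0.05), from which depth and read numbers were taken. Of the columns, 0 belonged to no sample.

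Libraries were grouped by their labels. Over the 16932 genes with log2 mean RPM above -1, limma 3.58.1 in R 4.3.3 (lmFit, eBayes with trend) compared the groups on the deposited values with no pseudocount, adjusted by Benjamini-Hochberg over all genes tested. Calls required 2-fold and an unadjusted two-sided *P* under 0.05. Single genes were also tested by the exact two-sided Wilcoxon rank sum test, whose smallest *P* is 0.00253 (0.00667 within technical sets). The limma step was tested before use in simulated data of independent libraries, which held neither technical sets nor shared mice. Lists were described by counts and medians. Named genes are the 10 genes, *Gfra1*, *Kit*, the called and the 2 most abundant genes of each list, and for each of the 10 the 2 genes with the highest Pearson r. The 10 genes and the lists were chosen with earlier results of these data known. Positions and exon lengths are from GENCODE vM21 (GRCm38, the same build as mm10), and promoters from RefSeq. Annotated transcripts were searched with BLAST+ 2.17.0 for near copies of the 10 genes, and none was found beyond the stretches shared with overlapping genes. Other software was Python 3.11.15, numpy 2.4.6, pandas 2.3.3, scipy 1.17.1 and matplotlib 3.10.9. Alternatives were median centring, quantile normalization, log2(RPM + 1), log2(RPM + 0.1), other filters, array weights, voom on the recovered reads, technical sets as a term or alone, a replicate block, a common floor and leaving out each library.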

Additional observations from a re-analysis of the deposited data

Results flagged for a closer look

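In the cryptorchid group, replicate 3 stood apart from the other 6 libraries for 2 of the 10 genes. *Nanos3* was at 3.21 log2 RPM there, a gap to the next library of 0.633 of the group's whole range, and *Upp1* was at 5.15 log2 RPM, a gap of 0.658 of the range. These were 2 of 24 groups examined, and the limit used, Dixon's 95% critical value, marks about 1 in 20 groups by chance. Both values come from the same library, so they are not separate observations. That library also had the most genes without reads of its group (5799).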

How the results depend on the processing

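Over 26 alternatives (25 for *Sox3* and *Utf1*, which a filter at 2 removes), *Lin28a*, *Sall4* and *Utf1* kept their direction and *P* above 0.05 in each. *Pou5f1* was higher in each, with *P* above 0.05 in set 1 alone (0.129) and in set 2 alone (0.0935). *Nanos3* was lower in each, with *P* above 0.05 in 7, among them voom (0.0520), set 1 alone (0.259) and the exact test (0.106). *Neurog3* passed the call with array weights (-2.10, limma adjusted *P*=0.0872, range over alternatives 0.0872 to 0.99999).

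The small differences changed sign. *Cdh1* became -0.041 with median centring, -0.040 with quantile normalization, -0.023 with array weights, -0.012 with a set term and -0.19 in set 2 alone, and ran from -0.092 to 0.13 with a library left out. *Upp1* became -0.046 and *Zbtb16* -0.18 in set 2 alone, and with a library left out they ran from -0.12 to 0.57 and from -0.011 to 0.39. The cause was not tested.

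Members with *P* under 0.05 numbered 1 with voom, 0 in set 1 alone, 1 in set 2 alone and 1 to 3 with a library left out, against 2. Called members, 0 as reported, numbered 1 with median centring, quantile normalization, a set term (all *Nanos3*) or set 2 alone (*Nanos3*), 2 with array weights (*Neurog3* and *Nanos3*) and 0 to 2 with a library left out. With array weights 1 member had an adjusted *P* under 0.05 (*Nanos3*, 0.0483; range over alternatives 0.0248 to 0.99999). All genes called numbered 1585 with array weights and 632 in set 1 alone, against 1002. Genes with an adjusted *P* under 0.05, 2 as reported, numbered 4 with median centring or quantile normalization, 5 with log2(RPM + 1), 476 with array weights, 46 with a set term, 0 in either set alone and 0 to 9 with a library left out. The median r between members was -0.043 with set means removed.

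With the replicate block, 1 member was called (*Sox3*, -1.51) and 2 had an adjusted *P* under 0.05 (*Nanos3* 0.0248, *Pou5f1* 0.0288). All genes called numbered 1678, genes with an adjusted *P* under 0.05 949, and called genes of the fixed lists 20, against 12. The deviations of same-numbered libraries from their group means correlated at 0.347, 0.363, 0.411, 0.250 and 0.0488 (replicates 1 to 5). Of 10 libraries, 8 correlated best with their own number. The surgery was unilateral, so a control and a cryptorchid library could share a mouse. The sources do not link the library numbers to mice, so pairing by number is only a hint from the data. *Nanos3* was lower and *Pou5f1* higher than the same-numbered control in 5 of 5 numbers.

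Limits are the low depth of *Neurog3*, *Sox3* and *Utf1*, which had 4, 4 and 5 reads in their poorest libraries. Further limits are the digestion temperature that followed the groups, and exons shared with genes on the other strand.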
